A study of Homo sapiens with 4 samples.

Results

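Interferon receptors, the kinases and STAT protein attached to them, and the SOCS inhibitors that shut them off were followed in 2 transgenic HEK293 lines before and after a double-stranded RNA stimulus. The genes were IFNAR1, IFNAR2, IFNLR1, IL10RB, JAK1, TYK2, STAT2, SOCS1 and SOCS3, chosen by name, and their probes were taken from the annotation of the array platform. That annotation gave a probe for 8 of the 9 genes, 9 probes in all, among 18639 genes of the array. STAT2 was not analysed here. HEK293 is an immortalized human embryonic kidney line. One line was transgenic for LGP2, the product of DHX58 and a relative of RIG-I that binds double-stranded RNA, and the other for LGP2-4KR, a variant named but not explained in the labels. RNA was taken from each line without stimulation (0 h) and at 12 h after short poly I:C (a man-made RNA duplex) had been delivered by lipofection at 100 ng/ml. Each of these 4 groups was 1 array. The promoter of the transgenes and whether a line was 1 clone or a pool are not given in the sources used here. No array came from cells without a transgene or from mock-transfected cells, so poly I:C, lipofection and the hours in culture cannot be told apart as sources of a change. In a bulk sample, fewer cells that express a gene and less of its RNA per cell cannot be told apart either.

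Type I interferons, such as interferon beta, bind a receptor of IFNAR1 and IFNAR2, and type III (lambda) interferons bind IFNLR1 together with IL10RB. Both receptors use the kinases TYK2 and JAK1, which phosphorylate STAT proteins, STAT2 among them. STAT2 joins IRF9 in ISGF3, the factor that binds the interferon-stimulated response element (ISRE) of antiviral genes, while dimers of STAT proteins bind GAS elements. SOCS1, SOCS3 and USP18 act as feedback inhibitors: SOCS1 and SOCS3 bind and block the kinases, and USP18 blocks signalling at IFNAR2.

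Levels are given as deposited intensities, in which background was subtracted and the median of each array is 25, and differences as log2 ratios after quantile normalization with an offset of 50. The offset draws the ratios of dim probes towards 0, so a log2 ratio of a dim gene understates its change. The probes of SOCS1, SOCS3, IFNLR1 and IFNAR1 were dim. So were those of IRF9, IFNB1, the lambda interferons, IFIT1, IFIT2 and IFIT3 at 0 h. With 1 array a group, no comparison within a line has a test. The one test available is limma's fit of time with line as a covariate (the additive fit), in which the 2 lines stand in for replicates of the response, with 1 residual degree of freedom per gene. The fit sets the mean response of the 2 lines against a variance from 2 sources. These are the difference between the lines and, with 4.41 prior degrees of freedom, other genes at that level. It does not measure the spread between cultures. Between 83.2% and 89.2% of gene probes were detected per array, and all 9 probes studied were detected on all 4 arrays. Deposited intensities were higher at 12 h across the array, by a median of 1.19-fold for LGP2 and 1.11-fold for 4KR over the genes with values at both times. DHX58, as deposited, went from 41.4 to 51.0 in the LGP2 line and from 22.8 to 42.6 in the 4KR line; the labels do not say whether its probe reads the transgene. Of the markers of HEK293 and embryonic kidney cells, 6 of 6 with a probe were detected on every array, VIM and KRT18 among them, with summed intensities of 2270 and 2343 at 0 h and of 1821 and 1723 at 12 h in LGP2 and 4KR cells. Blood cell markers summed to between 147.1 and 180.2 (4 of 5 detected). Fibroblast markers summed to between 0 and 48.6 (1 to 3 of 5) and keratinocyte markers to between 242.8 and 321.7 (5 of 5). A gene with a probe lacking a deposited value was left out of the sum on that array. CD3E was left out on every array and DCN on all but the 12 h LGP2 array (45.4). Both were detected on all 4 arrays. DCN log2 levels were 6.76 and 6.74 in LGP2 cells (0 h and 12 h) and 6.78 in 4KR cells at both times. The range of the fibroblast sums thus does not measure a change. PTPRC was not detected on any array. The part of these markers in the results was not tested.

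None of the 8 genes was past 2-fold or 1.5-fold at 12 h in either line. For SOCS1 and SOCS3 the offset, larger than their signal above the blank level on every array, all but fixed this outcome. In LGP2 cells that signal went from 10.3 to 23.2 scanner units for SOCS1 and from 2.36 to 13.0 for SOCS3. Their deposited ratios there were 1.97-fold and 4.75-fold. The offset was also larger than the signal of IFNLR1 and IFNAR1 on every array and compressed their ratios. In LGP2 cells their deposited ratios were 1.69-fold and 1.51-fold. The count thus does not show that SOCS1, SOCS3, IFNLR1 or IFNAR1 was unchanged. Of all genes detected on the brighter array, 0.438% were past 2-fold upwards with LGP2 and 0.411% with 4KR, and 1.88% and 1.59% were past 1.5-fold. Downwards, 0.510% of genes with LGP2 and 0.423% with 4KR were past 1.5-fold, and 0.0120% and 0.00604% past 2-fold. The 8 genes had median log2 ratios of 0.022 with LGP2 and 0.026 with 4KR, against -0.0079 and -0.0089 over all genes. In the additive limma fit, 2 of the 8 rose (SOCS1 and SOCS3) and 1 fell (JAK1) at an adjusted p under 0.05 (SOCS3 was below 0 with median scaling and JAK1 above 0 without normalization between arrays), where 10.0% of all genes tested rose and 8.65% fell. That split of all genes, 1717 higher and 1477 lower, moved to 5846 and 16 without normalization between arrays and to 3115 and 297 in the deposited table.

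**Figure D1:**
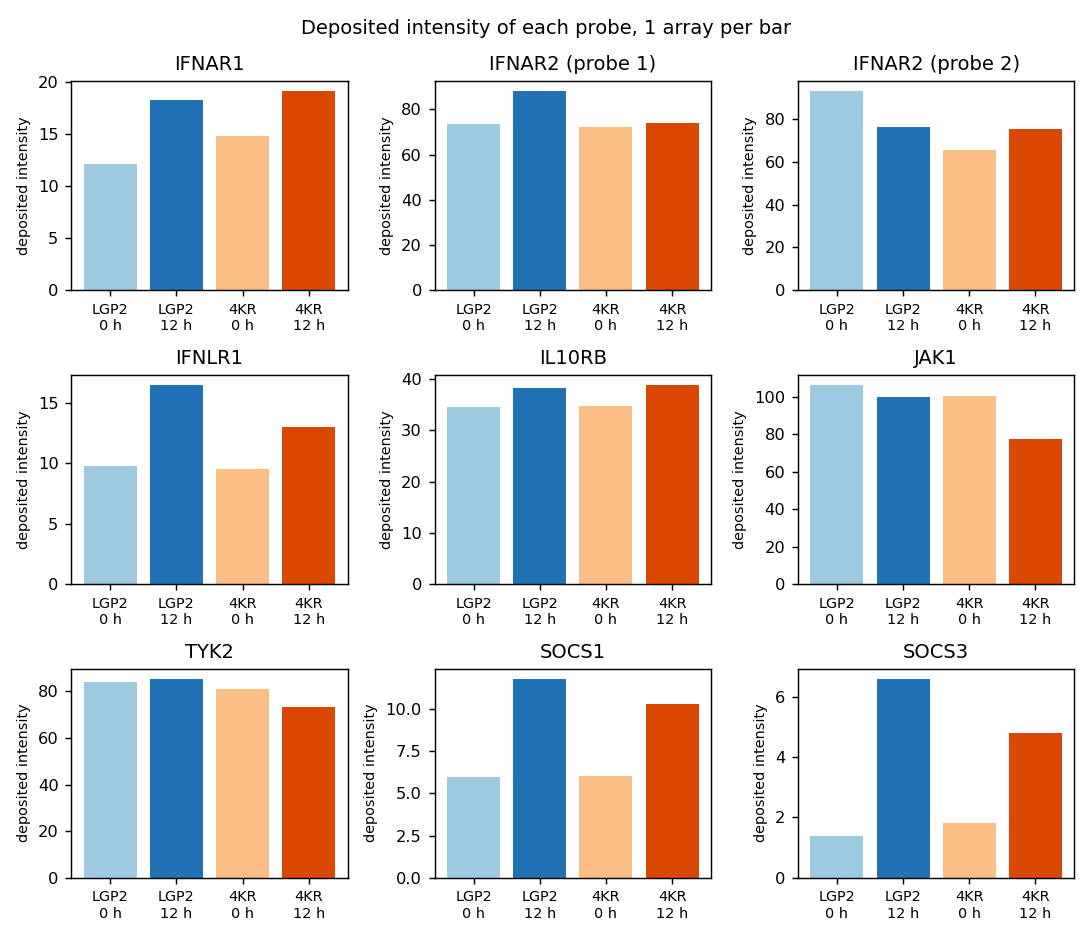
Deposited intensity (linear scale, median of each array 25) of the 9 probes, 1 bar for each array, with 0 h in the lighter and 12 h in the darker shade. SOCS1 and SOCS3 are higher at 12 h in both lines, whereas JAK1 is lowest on the 12 h array of 4KR cells at 77.8; axes differ between panels.

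Neither chain of the type I interferon receptor passed the test after quantile normalization without the position correction. IFNAR1, its low-affinity chain, had deposited intensities of 12.1 at 0 h and 18.2 at 12 h in LGP2 cells, and of 14.8 and 19.1 in 4KR cells. Both 12 h arrays were above both 0 h arrays. Its log2 ratios were 0.11 (LGP2) and 0.067 (4KR), and the additive limma fit gave 0.089 ± 0.034 (SE, 4 arrays; adjusted p = 0.13). Limma called it with the position correction (adjusted p = 0.048), from deposited values (0.045) and without normalization between arrays (0.014). With median scaling, at 0.075 (limma adjusted p = 0.15), or with no trend of the prior variance with level (0.18), it was not called. In the deposited table the ratio of LGP2 cells was 1.51-fold, against a median of 1.2-fold for 1357 genes of like unstimulated level (from 0.8 times that of IFNAR1 to the inverse of that ratio), of which 16.9% were past 1.5-fold. That of 4KR cells was 1.29-fold, against a median of 1.12-fold.

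IFNAR2, the high-affinity chain, was read by 2 probes that disagreed. The first had intensities of 73.4 and 88.1 in LGP2 cells at 0 h and 12 h, and of 72.1 and 74.0 in 4KR cells. The second had 93.2 and 76.3 in LGP2 cells and 65.4 and 75.2 in 4KR cells, so that its highest value was the unstimulated LGP2 array and its lowest the unstimulated 4KR array. Log2 ratios of 12 h over 0 h were 0.0051 and -0.10 for the first probe in LGP2 and 4KR cells, and -0.41 and 0.016 for the second. The second probe was printed in block 24, whose probes had a median log2 ratio of -0.092 for LGP2 and 0.033 for 4KR; the part of this shift in the probe's value was not tested. Averaged over both probes, the ratios were -0.20 (LGP2) and -0.042 (4KR), and the additive limma fit did not call it (-0.12 ± 0.062, SE; adjusted p = 0.23).

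IFNLR1, the chain that is specific to lambda interferons, had intensities of 9.77 and 16.5 in LGP2 cells and of 9.5 and 13.0 in 4KR cells. The 2 unstimulated arrays were nearly equal, and both were below both stimulated arrays. The log2 ratios were 0.15 and 0.068, and the additive limma fit gave 0.11 ± 0.034 (SE; adjusted p = 0.084), higher in both lines but short of the threshold. It was called by limma with the position correction (adjusted p = 0.024), from deposited values (0.037) and without normalization between arrays (0.0054). Limma did not call it with median scaling, at 0.058 (adjusted p = 0.30), or with no trend of the prior variance with level (0.16). On the deposited scale the ratios were 1.69-fold and 1.37-fold, where genes of like level had medians of 1.22-fold and 1.14-fold. IL10RB, the chain it shares with the receptors of interleukin-10 and interleukin-22, stayed within a narrow range, with intensities of 34.5 and 38.3 in LGP2 cells and of 34.8 and 38.9 in 4KR cells. Its log2 ratios were -0.066 and -0.015, and limma gave an adjusted p of 0.57.

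Among the other receptors of the class II cytokine family, 2 of 7 rose and 3 fell in the additive limma fit with median scaling. With that setting 4261 of all 17085 genes rose and 4334 fell. After quantile normalization 1 of 7 rose and 0 fell, where 10.0% of all genes tested rose and 8.65% fell. This was IFNGR1, the ligand-binding chain of the interferon gamma receptor, with intensities of 209.6 and 328.5 in LGP2 cells and of 212.9 and 322.4 in 4KR cells. Its log2 ratios were 0.42 and 0.47 (0.45 ± 0.068, SE; adjusted p = 0.015). Both stimulated arrays were above both unstimulated ones. IL20RB and IL22RA1 had log2 ratios between -0.032 and 0.079 in the 2 lines. IL20RA was not above the blank limit in LGP2 cells at either time and had -0.076 in 4KR cells. Of the 17 receptors of the gp130 and gamma-chain families, 3 rose and 7 fell with median scaling, but after quantile normalization 1 rose and 0 fell. It was IL6ST, the gp130 chain through which interleukin-6 signals, at log2 ratios of 0.18 and 0.27 (0.22 ± 0.039, SE; limma adjusted p = 0.020), a call lost when limma's prior variance has no trend with level (adjusted p = 0.051). IL15RA and IL27RA had 0.14 and 0.093, and -0.068 and -0.25.

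JAK1, the kinase shared by both interferon receptors, fell in the additive limma fit by 0.34 ± 0.063 on the log2 scale (SE; adjusted p = 0.022), lower in both lines after quantile normalization but above 0, at 0.100, without normalization between arrays. Limma did not call it in the deposited table (adjusted p = 0.17) or with median scaling, where it was at -0.12 (adjusted p = 0.16). Its deposited intensities were 106.6 and 100.1 in LGP2 cells and 100.5 and 77.8 in 4KR cells, so that the stimulated 4KR array stood below the other 3. The log2 ratios were -0.27 in LGP2 cells and -0.42 in 4KR cells. Before any scaling, the signal above the blank spots was 183.0 and 197.3 scanner units in LGP2 cells and 167.8 and 187.7 in 4KR cells, slightly higher at 12 h on arrays that were brighter as a whole. Relative to the median of all genes JAK1 was at log2 values from -0.53 to -0.023 over the settings tried, several of which are the same by construction for a gene with 1 probe.

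TYK2, the partner kinase, had intensities of 84.0 and 85.5 in LGP2 cells and of 81.2 and 73.5 in 4KR cells. The log2 ratios were -0.17 and -0.24, in the same direction as those of JAK1, and the additive limma fit gave -0.21 ± 0.054 (SE; adjusted p = 0.055, short of the threshold, and 0.031 with the position correction). Relative to the median of all genes TYK2 was lower with quantile normalization and in the deposited table, but higher, by 0.057 in LGP2 cells and 0.058 in 4KR cells, with median scaling and without normalization between arrays.

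Of the 8 other JAK, STAT and ISGF3 genes with a probe, 2 rose in the additive limma fit and 0 fell. Of all genes tested, 10.0% rose and 8.65% fell. With median scaling 3 of these 8 rose and 1 fell, where 4261 of all 17085 genes rose and 4334 fell. IRF9, the DNA-binding subunit of ISGF3, had intensities of 2.84 and 54.9 in LGP2 cells and of 3.7 and 50.9 in 4KR cells. Its log2 ratios of 1.30 and 1.26 were the only ones of this list past 2-fold (1.28 ± 0.037, SE; limma adjusted p = 0.00011). IRF9 was dim at 0 h, and its fitted value was 3.69 when background was plainly subtracted and 4.03 from deposited values. JAK2, a kinase of the interferon gamma receptor, is named after its value was seen; it had intensities of 8.42 and 22.7 in LGP2 cells and of 10.7 and 17.3 in 4KR cells, with log2 ratios of 0.39 and 0.17 (limma adjusted p = 0.030, and 0.092 without the trend). The list had medians of 0.065 (LGP2) and 0.032 (4KR).

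SOCS1 and SOCS3, dim in unstimulated cells, were the 2 genes of the 8 that rose in the additive fit; both calls were lost when the prior variance had no trend (limma adjusted p = 0.077 and 0.099) and with median scaling, where SOCS1 was at 0.049 (limma adjusted p = 0.43) and SOCS3 below 0. SOCS1 had deposited intensities of 5.99 and 11.8 in LGP2 cells and of 6.0 and 10.3 in 4KR cells. The 2 unstimulated values were almost identical, and both stimulated values were above them. On the deposited scale the ratios were 1.97-fold (LGP2) and 1.72-fold (4KR), and the normalized log2 ratios, compressed by the offset, were 0.15 and 0.13 (0.14 ± 0.026, SE; limma adjusted p = 0.024). Genes of like unstimulated level had median ratios of 1.27-fold and 1.16-fold in the deposited table, and 20.3% of 1158 and 14.2% of 1165 of them were past 1.5-fold, as SOCS1 was.

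SOCS3 had deposited intensities of 1.39 and 6.6 in LGP2 cells and of 1.8 and 4.8 in 4KR cells. Its unstimulated signal lay 2.24 SD of the blank spots above their mean in LGP2 cells and 2.82 in 4KR cells, just past the limit of 2 SD that counted as detected, and its stimulated signal 10.9 and 9.09 SD above. The deposited ratios were 4.75-fold and 2.67-fold, the largest of the 8 genes in both lines. They rest on unstimulated values of very few scanner units, 2.36 and 3.03 above the blank level. Genes as dim as SOCS3 were compared only where they had values at both times, so genes without a value at 12 h were left out. Those compared were higher at 12 h by medians of 1.97-fold over 448 genes in LGP2 cells and 1.43-fold over 501 genes in 4KR cells. Of these, 47.3% and 13.2% were past 2-fold. The part of this shift of dim probes in the SOCS3 ratio was not tested. The normalized log2 ratios were 0.17 and 0.10 (0.14 ± 0.026, SE; limma adjusted p = 0.023), higher in both lines, but with median scaling the fitted value was -0.0100.

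The promoters of these genes are shown because the 2 elements of the pathway, the ISRE and the GAS, can be looked for in them. RefSeq windows of assembly GRCh38.p14, 250 bases before to 50 after a start site, were found for 8 of the 9 genes, 12 windows in all, and were searched on both strands for the ISRE core GAAANNGAAA and the GAS core TTCNNNGAA, whose letters read the same on both strands. The ISRE core was in 3.57% of 35116 such windows of all genes and the GAS core in 7.66%. No window was found for IFNAR2, nor for USP18. SOCS1 was the only one of the 8 with an ISRE core, GAAAGAGAAA, whose first base is at position -113 from the start site. IFNLR1 and IL10RB each had a GAS core, at positions -238 and 12, and SOCS3, JAK1, TYK2, STAT2 and IFNAR1 had neither in these windows. IRF9 had a GAS core at position -63. A match describes letters in this window and is not a measured site. SOCS3 had 2 windows, of which only the first is shown. That window and those of SOCS1, IFNLR1 and IRF9 follow 5′ to 3′ on the gene's strand, with matched letters in capitals: SOCS1 at chr16:11256155-11256454 (minus strand), SOCS3 at chr17:78360876-78361175 (minus), IFNLR1 at chr1:24187240-24187539 (minus) and IRF9 at chr14:24161015-24161314 (plus).
SOCS1: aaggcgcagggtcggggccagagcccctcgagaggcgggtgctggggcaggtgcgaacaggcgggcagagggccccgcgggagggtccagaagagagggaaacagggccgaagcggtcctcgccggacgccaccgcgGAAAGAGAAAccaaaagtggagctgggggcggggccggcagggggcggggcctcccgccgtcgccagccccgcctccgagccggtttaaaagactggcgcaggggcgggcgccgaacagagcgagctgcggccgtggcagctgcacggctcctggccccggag
SOCS3: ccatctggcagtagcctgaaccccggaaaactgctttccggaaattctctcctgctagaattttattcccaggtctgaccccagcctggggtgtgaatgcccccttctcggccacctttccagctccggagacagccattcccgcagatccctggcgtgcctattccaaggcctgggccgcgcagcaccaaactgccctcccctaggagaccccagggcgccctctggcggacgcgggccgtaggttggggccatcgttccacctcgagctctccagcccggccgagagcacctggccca
IFNLR1: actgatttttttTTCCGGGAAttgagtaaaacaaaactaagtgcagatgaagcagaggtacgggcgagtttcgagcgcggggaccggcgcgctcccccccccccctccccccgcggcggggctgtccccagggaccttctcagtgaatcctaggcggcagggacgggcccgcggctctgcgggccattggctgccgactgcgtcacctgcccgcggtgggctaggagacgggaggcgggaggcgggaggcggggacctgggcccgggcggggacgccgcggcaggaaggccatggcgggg
IRF9: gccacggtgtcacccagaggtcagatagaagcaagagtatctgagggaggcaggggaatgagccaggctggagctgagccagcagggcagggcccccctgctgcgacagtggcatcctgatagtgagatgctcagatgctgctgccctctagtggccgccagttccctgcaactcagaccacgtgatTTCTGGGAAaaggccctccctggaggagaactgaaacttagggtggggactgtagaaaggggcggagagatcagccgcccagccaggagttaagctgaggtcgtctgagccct

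Of 17 other inhibitors of the pathway with a probe, 5 rose in the additive limma fit and 0 fell, against 10.0% and 8.65% of all genes. USP18, the ISG15 protease that blocks signalling at IFNAR2, had intensities of 83.6 and 349.3 in LGP2 cells and of 76.5 and 342.8 in 4KR cells, with log2 ratios of 1.58 and 1.76 (1.67 ± 0.074, SE; limma adjusted p = 0.00054). It was the only inhibitor past 2-fold in either line. The other 4, named after their values were seen, were SOCS2, SOCS4, SOCS5 and PTPN2, a phosphatase that acts on JAK1. SOCS2 had log2 ratios of 0.36 and 0.42, with intensities of 23.4 and 45.0 in LGP2 cells and of 26.1 and 49.0 in 4KR cells. SOCS5 had 0.37 and 0.28, PTPN2 0.40 and 0.34, and SOCS4 0.20 and 0.47, which was not called without the trend (limma adjusted p = 0.085). In the same fit 11 of the 17 rose and 1 fell with median scaling, and 14 rose without normalization between arrays. Of all 17085 genes, 4261 rose and 4334 fell with median scaling, and 5846 rose and 16 fell without normalization between arrays. The probes of these 4 genes were brighter than those of SOCS1 and SOCS3, so the offset compressed their ratios less, and the ratios of different probes are not ranked here.

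None of the 8 had a difference of the responses (4KR minus LGP2) past 1.5-fold or 2-fold, where 0.451% of all genes were past 1.5-fold upwards and 0.426% downwards, and 0.0254% and 0.0318% past 2-fold. The differences ran from -0.14 for JAK1 to 0.16 for IFNAR2, and the IFNAR2 value rests on the second probe. SOCS1 and SOCS3 were at -0.028 and -0.070, values compressed by the offset, so their place inside 1.5-fold has little meaning. The offset also compressed the differences of IFNLR1 and IFNAR1, at -0.081 and -0.044. In the deposited table the SOCS3 difference was -0.83, with 4KR over LGP2 at 0.37 at 0 h and -0.46 at 12 h. Between the lines at 0 h, the log2 ratio of 4KR over LGP2 cells ran from -0.19 for IFNAR2 to 0.095 for IFNAR1, and 0 of the 8 were past 1.5-fold, where 0.130% of all genes were higher and 0.341% lower (0.0124% and 0.00620% past 2-fold). At 12 h it ran from -0.20 for JAK1 to 0.059 for IL10RB, again with 0 of the 8 past 1.5-fold, and with 0.0587% and 0.0352% of all genes (0.0117% and 0% past 2-fold). With no replicate, none of these differences has a test, and they do not show that the lines were equal. Among the other inhibitors 1 gene, named after its value was seen, passed 1.5-fold. PTPN11, the phosphatase SHP2, had a difference of -0.84, with log2 ratios of 0.47 in LGP2 cells and -0.37 in 4KR cells.

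**Figure D2:**
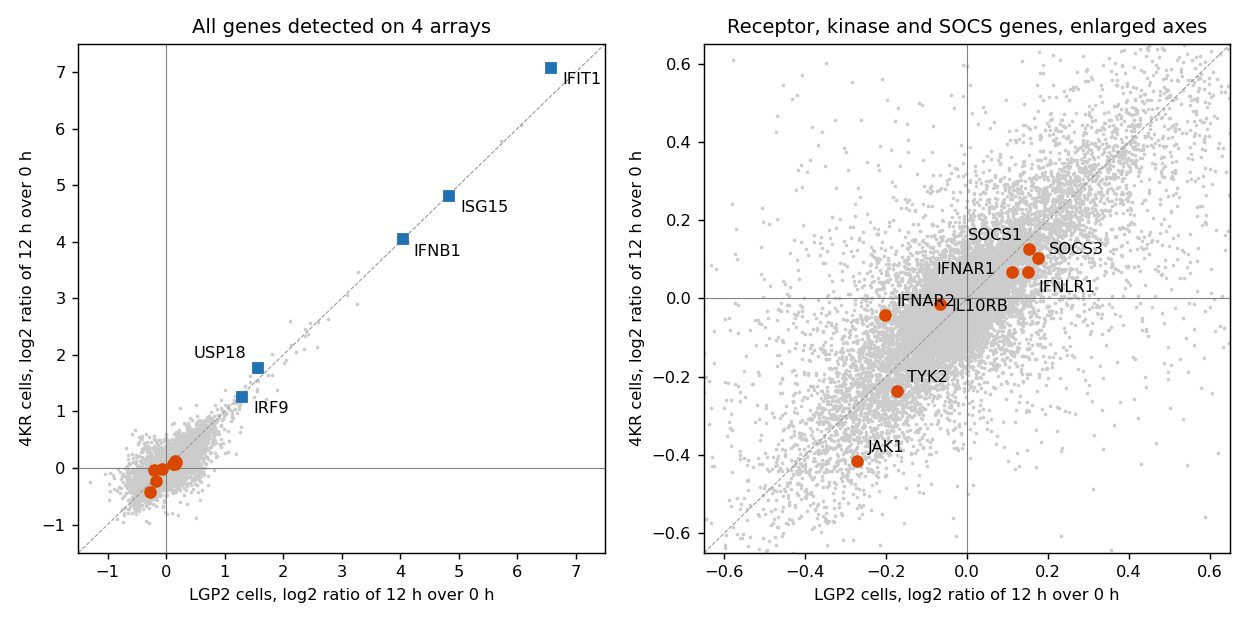
Log2 ratio of 12 h over 0 h in LGP2 cells (horizontal) and 4KR cells (vertical), after quantile normalization with an offset of 50; grey points are genes detected on all 4 arrays, orange circles the 8 genes studied and blue squares other genes of the pathway, with the line of equal response dashed. The 8 genes lie within 0.42 of 0 on both axes, whereas IRF9, USP18, IFNB1, ISG15 and IFIT1 lie past 1.2 in both lines. The offset compresses the ratios of SOCS1, SOCS3, IFNLR1 and IFNAR1.

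The ligands and targets of the pathway set the scale for these values. In the additive limma fit with median scaling, 3 of 17 interferon genes tested rose and 3 fell. Of all 17085 genes, 4261 rose and 4334 fell with that setting. After quantile normalization 3 rose and 0 fell, where 10.0% of all genes rose and 8.65% fell. IFNB1, the gene of interferon beta, had log2 ratios of 4.04 in both lines. The others were the lambda interferon genes IFNL3 and, named after its values were seen, IFNL1, which were not above the blank limit on the unstimulated LGP2 array. There IFNL3 was at least 2.27-fold and IFNL1 at least 1.89-fold higher at 12 h, against the higher of the probe's own value and the lowest detected signal of that array, and in 4KR cells their log2 ratios were 1.18 and 0.96. Fitted values of such dim probes moved with the background: IFNL3 was at 1.19, but at 4.66 when background was plainly subtracted and at 5.03 from deposited values, and IFNL1 at 0.95, 4.09 and 4.59. Of 14 ISGF3 target genes 14 rose, against 10.0% of all genes, with medians of 2.43 and 2.30 and 10 of 14 past 2-fold in each line. With median scaling 13 rose, and 13 without the trend, where 1359 of all genes rose. Whether ISGF3 acted on these genes here was not tested. IFIT1 had log2 ratios of 6.58 and 7.08, IFIT3 of 6.06 in both lines, IFIT2 of 5.73 and 5.78 and ISG15 of 4.84 and 4.82. The IFIT and IFNB1 probes were dim at 0 h, so the offset compressed their ratios. From deposited values IFIT1 was at a fitted 8.53, IFIT3 at 9.86, IFIT2 at 7.65 and IFNB1 at 6.10. The list of STAT3 targets had medians of 0.15 and 0.18, and 4 of 10 rose. These were FOS at 0.78 and 0.68, VEGFA at 0.38 and 0.35, CEBPD at 0.22 and 0.25 and BCL3 at 0.14 and 0.20. BCL3 was named after its values were seen. It was below 0, at a fitted -0.11, for its brightest probe, and not called without the trend (limma adjusted p = 0.064). The brightest FOS probe was at a fitted 1.54. MCL1, at 0.28 and 0.14, did not pass. Its brightest probe did (a fitted 0.55, limma adjusted p = 0.017). So did MCL1 with the position correction (limma adjusted p = 0.025), with median scaling and without normalization between arrays. With median scaling 9 of the 10 rose, where 4261 of all 17085 genes did. Without normalization between arrays all 10 rose, where 5846 of all genes rose and 16 fell. FOS is also an immediate early gene. None of the 6 gp130 cytokine genes with a probe passed the additive limma fit (2 at an unadjusted p under 0.05; with median scaling 3 fell), of which OSM, LIF, IL11 and IL27 had log2 ratios between -0.23 and 0.086.

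**Figure D3:**
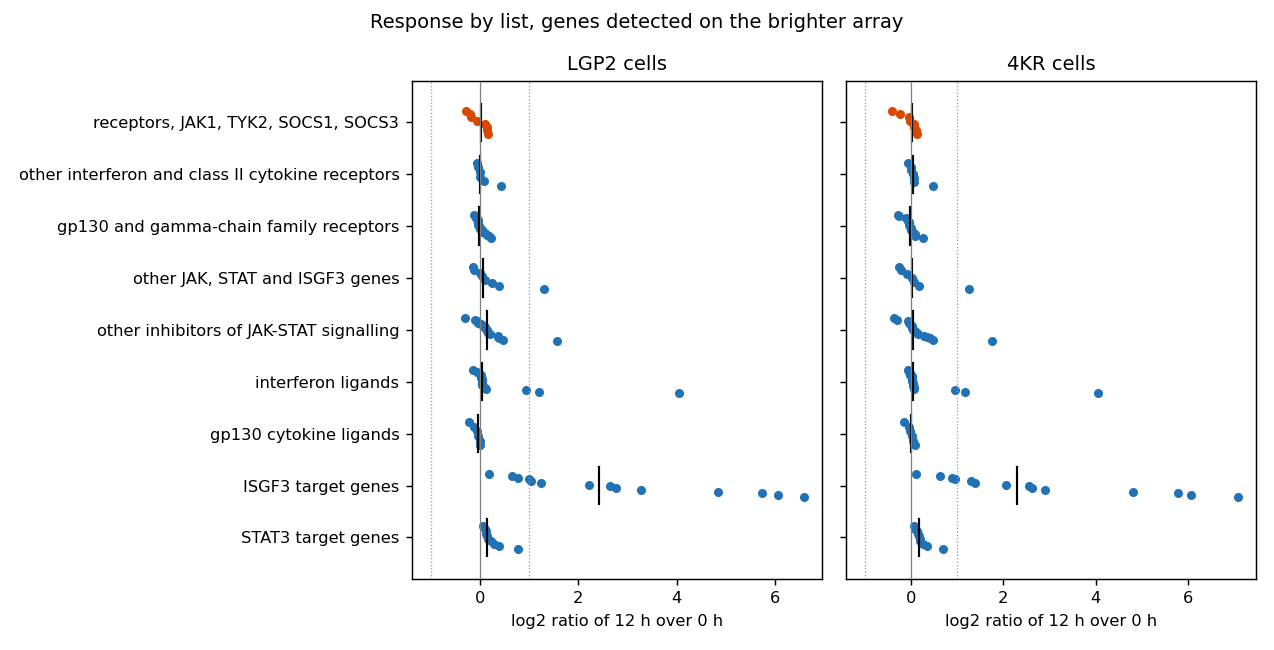
Log2 ratio of 12 h over 0 h for each gene of 9 lists in LGP2 cells (left) and 4KR cells (right), genes detected on the brighter array only; points are genes, black bars medians and dotted lines mark 2-fold; IFNL1 and IFNL3 are at their normalized ratios, not their bounds. The receptors, kinases and SOCS genes stay inside the 2-fold lines, and 10 of the 14 ISGF3 targets, with list medians of 2.43 and 2.30, stand to the right of them. For SOCS1 and SOCS3 the offset all but fixes this, and it also compresses the ratios of IFNLR1 and IFNAR1.

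The values of the 8 genes depended on how background and scale were set. With plain subtraction of the blank level, SOCS3 was at log2 ratios of 1.59 (LGP2) and 1.03 (4KR) and SOCS1 at 0.65 and 0.56. With an offset of 16 they were at 0.39 and 0.24 and at 0.30 and 0.25. IFNLR1 moved from 0.15 to 0.47 and IFNAR1 from 0.11 to 0.32 in LGP2 cells when background was plainly subtracted. Over all settings SOCS1 was above 0 in both lines, from 0.084 to 0.98 in LGP2 cells and from 0.014 to 0.78 in 4KR cells. SOCS3 was above 0 in LGP2 cells in every setting, but at -0.083 in 4KR cells with median scaling.

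**Figure D4:**
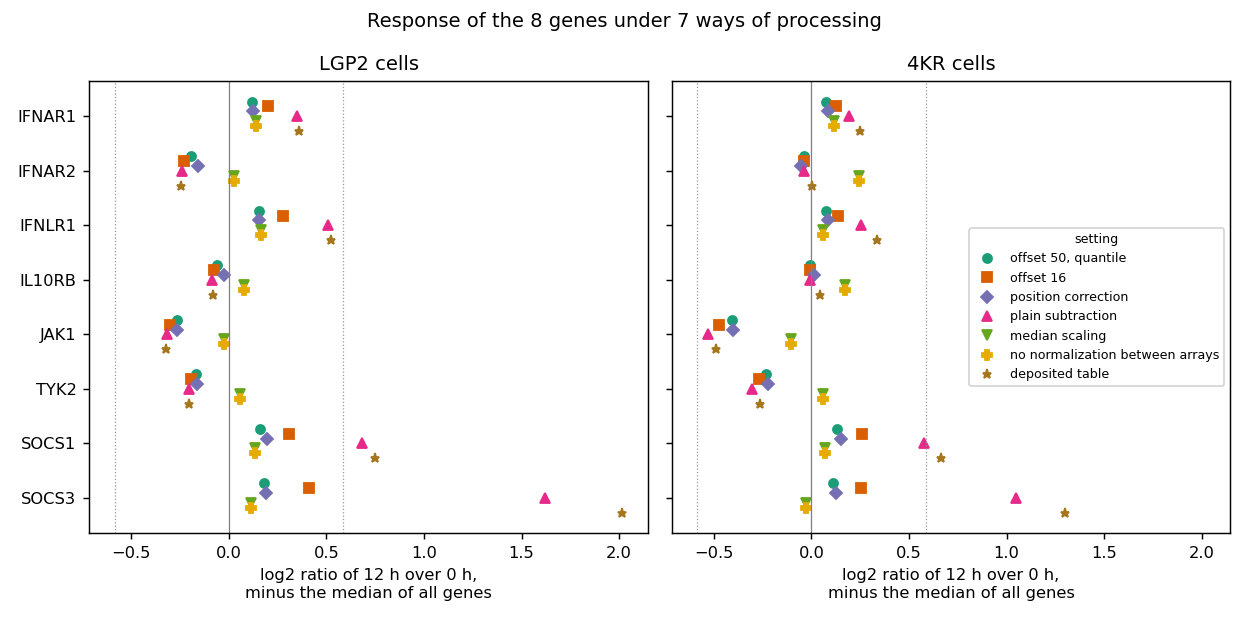
Log2 ratio of 12 h over 0 h for the 8 genes, less the median of all genes, under 7 ways of processing (symbols) in LGP2 cells (left) and 4KR cells (right); dotted lines mark 1.5-fold. SOCS1 and SOCS3 spread widest, with SOCS3 at 2.02 in LGP2 cells in the deposited table, and JAK1 lies below 0 under each.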

How the data were processed

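Total RNA was amplified, coupled to Cy5 and hybridised to single-colour arrays, per the labels' protocols. Per the file headers, the deposited scanner tables give each spot's median intensity, not normalized, and join readings at 3 gains by least-squares fits. The authors' deposited value table lists background-subtracted intensities: a regression on the scanner values returned each of them as the spot's median less roughly the blank mean, multiplied so that every array has a median of 25 (largest residual 0.0530). How that was done is not stated in the labels.

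From the scanner intensities, background (the mean of 384 blank spots) was handled by normexp with an offset of 50 (limma 3.58.1, R 4.3.3), followed by quantile normalization over 24460 gene probes and log2. Probes of a gene were averaged; 1 rejected probe was left out. A probe counted as detected if it exceeded the blank mean by over 2 blank SD. Genes of the platform annotation (21707 probes with 1 gene, 0 with several, 2753 unnamed) kept their symbols. Ratios were counted past 2-fold and 1.5-fold if detected on the brighter array, and the difference of the responses if detected on all 4 arrays. The additive fit (lmFit, eBayes with trend, Benjamini-Hochberg) tested 17085 genes detected on at least 1 array and was tested on simulated data. The number of arrays limits the precision.

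The genes and lists were chosen with earlier results of these data known. Named genes were the 9 genes and, from each of 8 further lists, those past 2-fold in either line or, where there were 0 or more than 4, the 4 with the largest mean absolute ratio. None of the 8 genes measured passed 1.5-fold in the mean of both lines, so no nearest patterns were sought. A further list of genes is not reported here. The genes of like level were chosen after seeing the data. Alternatives were an offset of 16, plain subtraction with a floor of 1, no or median scaling between arrays, a correction by print block, the deposited table, the brightest probe, and other filters and prior variances.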

Additional observations from a re-analysis of the deposited data

Results flagged for a closer look

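In LGP2 and 4KR cells the log2 ratio of 12 h over 0 h had opposite signs for both IFNAR2 probes and, among the other genes named in the text, for IL13RA1, PTPN11, IL22RA1, IL11 and IL27, from 1 array a group, so the difference was not tested. The first IFNAR2 probe was at 0.0051 in LGP2 and -0.10 in 4KR cells, and the second at -0.41 and 0.016. IL13RA1, a chain of the interleukin-13 receptor, was at 0.23 and -0.28, and PTPN11 at 0.47 and -0.37. Near 0 in both lines were IL22RA1 at -0.032 and 0.045, IL11 at -0.062 and 0.086, and IL27 at -0.035 and 0.035.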

How the results depend on the processing

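The counts of the 8 genes past a fold, all 0 here, moved with the background and the table. With plain subtraction 1 gene was past 2-fold in LGP2 cells and 1 in 4KR cells (SOCS3), and 2 and 1 were past 1.5-fold. With the deposited values, 1 and 1 were past 2-fold, 4 and 2 past 1.5-fold, and 1 (SOCS3) had a difference of the responses past 1.5-fold. The other alternatives gave 0. The 3 calls of the additive limma fit became 0 with median scaling and 6 with the position correction. With that correction 2528 of all 17085 genes were called higher and 2139 lower. JAK1 turned to 0.100 without normalization between arrays and SOCS3 to -0.0100 with median scaling, and neither was called there. Without the trend the calls were JAK1 and TYK2, where 1359 of all genes were called higher and 1247 lower. Of the other named genes, IL13RA1 turned to 0.37 without normalization between arrays and 0.15 with median scaling, IL27 to -0.16 with median scaling, and BCL3 to -0.11 with its brightest probe. Of the single responses under alternatives, 119 stayed on their side of 1.5-fold and 9 did not. The 119 include responses that could not move. Taking the brightest probe changes no gene with 1 probe, and dropping the filter on dim genes changed none of the 8. Genes at least 2-fold higher numbered 73 in LGP2 and 68 in 4KR cells, but 561 and 448 with plain subtraction, 119 with an offset of 16 in LGP2 cells, 177 and 418 without normalization between arrays, 109 with median scaling in 4KR cells, and 1327 and 676 in the deposited table. The additive fit called 4261 genes higher and 4334 lower with median scaling. No paired analysis was possible because the labels number no replicates and each group is 1 array; for the same reason no replicate could be left out. Signal over background limits SOCS3 most.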
